A study of Homo sapiens with 9 samples.

Results

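The transcriptomes of HMEC-1 cells exposed to AMI-5 were compared directly with those of HMEC-1 cells exposed to AMI-1, each at 100 µM for 16 h. HMEC-1 is a human cell line made from immortalised microvascular endothelium of the dermis. It was kept here at 5.5 mM glucose, and all cells of both groups also received the solvent DMSO. The 3 AMI-5 and the 3 AMI-1 libraries entered the comparison, 6 of the 9 poly-A RNA libraries of the study, and they were paired by their replicate number. The other 3 libraries, from cells given DMSO only, were outside the fit and their levels are given only as a reference. AMI-1 is a urea that joins a pair of hydroxynaphthalene sulfonic acid units, and AMI-5 is the disodium salt of a tetrabrominated xanthene dye. This was 1 pair of compounds at 1 matched dose and time, and every difference given is AMI-5 against AMI-1. Whether libraries of 1 group stem from separate cultures is not in the labels, so p-values speak only of the spread among these libraries.

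Both compounds are known as inhibitors of protein methyltransferases, the enzymes that put methyl groups on arginine and lysine residues of histones and many other proteins. AMI-1 is described as selective for arginine methyltransferases, while AMI-5 also inhibits lysine methyltransferases. Flat aromatic molecules can act as ligands of the aryl hydrocarbon receptor, a transcription factor that switches on CYP1B1, TIPARP and its own repressor AHRR in endothelium. Reactive compounds are sensed through NRF2, which drives genes of glutathione supply and detoxification, and shortage of amino acids or stress of the endoplasmic reticulum raises the translation of ATF4, which drives amino acid synthesis and import.

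Read totals ran from 14454113 to 24693020 counts per library. Levels are given as CPM, the counts scaled to library size after TMM normalisation over all 9 libraries. The 13 transcripts of mitochondrial DNA took 2.78% ± 0.715 (SD, n = 3) of counts with AMI-1 and 2.81% ± 0.567 (SD, n = 3) with AMI-5. An exact two-sided permutation test over the pairs gave p = 1, where 0.25 is the smallest p that 3 pairs allow. The endothelial genes CDH5, the cadherin of endothelial junctions, and TEK, the angiopoietin receptor, were present at means of 173 and 83.7 CPM with AMI-1, while VWF, the platelet-binding protein of endothelial storage granules, stood at 7.87 CPM. PECAM1 and CLDN5, junction genes of most endothelium, and 4 other genes of a list of 30 endothelial genes were not analysed here. Of the sum of squares of log2 levels in the 6 libraries, the replicate number held 81.4% and the compound 10.1%.

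With the replicate number as a block, 684 of 18154 genes tested (3.77%) differed between the compounds at an adjusted p under 0.05 by edgeR's quasi-likelihood F test. Of these, 245 (1.35%) were higher and 439 (2.42%) were lower with AMI-5. Past 1.5-fold there were 96 higher and 54 lower genes, and past 2-fold 25 and 17. The median log2 difference over all genes was -0.000619, with 49.9% of genes above 0. CYP1B1 had the largest difference of all (-3.22 on the log2 scale). Among abundant genes THBS1, a matrix glycoprotein, and MYH9, a non-muscle myosin, were lower with AMI-5 by 0.27 and 0.25 on the log2 scale, calls lost without replicate 1 and without replicate 2. Of the 684 genes, 655 differed in the same direction in all 3 pairs. All calls rest on the block: without it 0 genes were called by edgeR, with 396 at an unadjusted p under 0.05, because the coefficient of biological variation was 21.6% without and 6.9% with the pairing. Without replicate 1 there were 101 calls, without replicate 2 there were 186 and without replicate 3 there were 3642. In all, 74 genes, 37 in each direction, were called in each of the 3 fits that left out a pair. Transcripts of the lower genes were richer in GC, with a median of 58.6% against 48.1% for all genes and 47.1% for the higher ones. Counts after a correction for GC content in each library are therefore given beside some gene groups. Groups without such counts are described before that correction only, and their calls can differ after it.

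**Figure D1:**
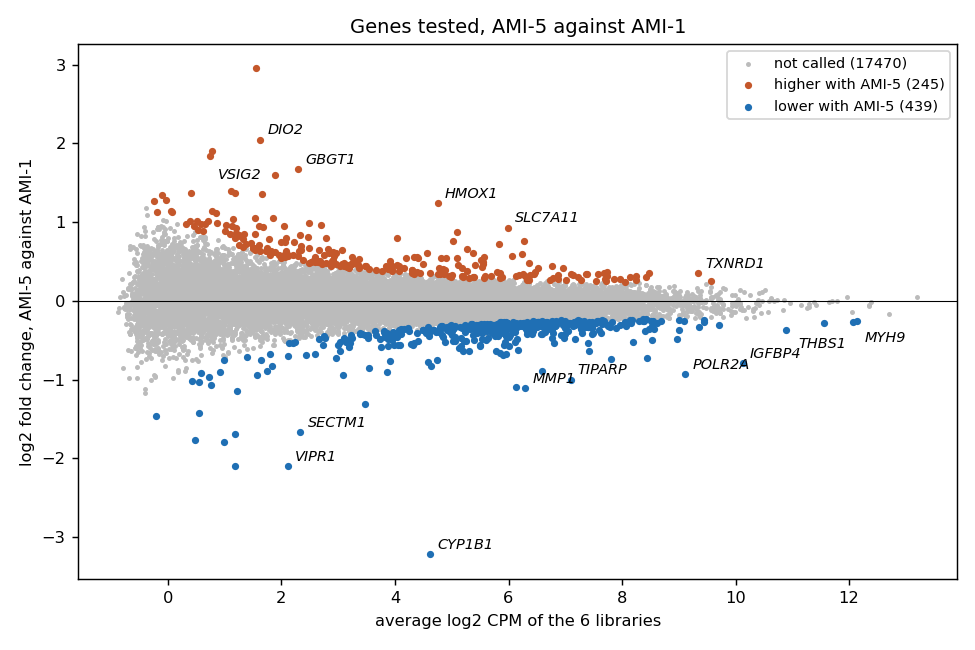
Each point is 1 of the 18154 genes tested; the horizontal axis is the average log2 CPM of the 6 libraries and the vertical axis the log2 fold change of AMI-5 against AMI-1. The 245 genes higher with AMI-5 are orange, the 439 lower ones blue, and CYP1B1 lies far below all others at -3.22.

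Of 8 measured genes of the aryl hydrocarbon receptor, CYP1B1, TIPARP and AHRR were lower with AMI-5. CYP1B1, a cytochrome P450 that oxidises steroids and aromatic pollutants, was at 52.6, 21.3 and 58.2 CPM in the 3 AMI-1 libraries and at 4.42, 4.90 and 4.61 CPM in the AMI-5 libraries. The lowest AMI-1 library stood several times above the highest AMI-5 library, and the DMSO libraries, at 6.09, 4.48 and 6.65 CPM, lay close to those of AMI-5. CYP1B1 was thus lower with AMI-5 by 3.22 on the log2 scale (SE 0.15, 9.34-fold, edgeR adjusted p = 8.02e-26). TIPARP, a mono-ADP-ribosyltransferase that curbs the receptor, was at 167, 174 and 200 CPM with AMI-1 and 76.3, 112 and 83.8 CPM with AMI-5. The groups did not overlap, and the DMSO libraries at 83.2, 121 and 97.3 CPM were again near those of AMI-5 (log2 difference -1.002, SE 0.08, edgeR adjusted p = 6.86e-14). AHRR, the repressor that competes for the receptor's partner, was at 40.7, 19.6 and 30.8 CPM with AMI-1 and 20.2, 14.1 and 17.7 CPM with AMI-5. Its ranges overlapped slightly between the groups, although AMI-5 was lower in every pair (log2 difference -0.78, SE 0.10, edgeR adjusted p = 3.23e-07).

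**Figure D2:**
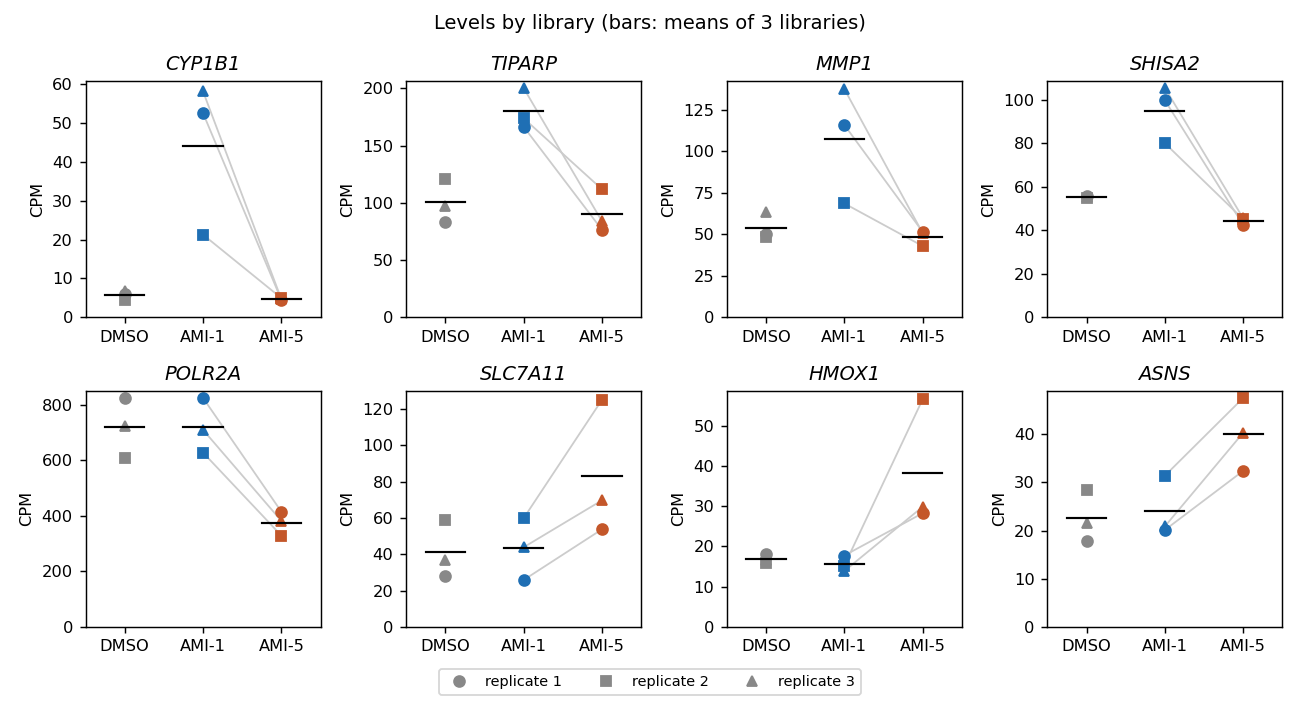
CPM in each library for 8 genes; marker shapes are replicate numbers, grey lines join the paired AMI-1 and AMI-5 libraries, and black bars are means of 3 libraries. CYP1B1, TIPARP, MMP1 and SHISA2 have AMI-5 levels near DMSO and higher AMI-1 levels, whereas POLR2A, SLC7A11, HMOX1 and ASNS have AMI-1 levels near DMSO.

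Of 14 genes listed for this receptor, 8 were measured, with a median log2 difference of -0.19. Of these, 3 were lower with AMI-5 and 1 was higher, beside 2.42% and 1.35% of all genes. After GC correction 4 were lower and 2 were higher, beside 5.17% and 3.72% of all genes. CYP1A1 and CYP1A2, the other classic targets, were not analysed here. The exception was NQO1, a quinone reductase that NRF2 also drives, which was at 115, 126 and 128 CPM with AMI-1 and 138, 176 and 149 CPM with AMI-5 (log2 difference 0.33, SE 0.08, edgeR adjusted p = 0.00525). All AMI-5 libraries were above all AMI-1 libraries, but the call was lost without replicate 1 (adjusted p = 0.305) and without replicate 2 (adjusted p = 0.489). AHR, the receptor itself, missed the threshold at 0.25 (95% interval 0.10 to 0.40, adjusted p = 0.0510), as did its partner ARNT at -0.19 (95% interval -0.35 to -0.03, adjusted p = 0.215). SLC7A5, an amino acid transporter, and HES1, a Notch target, had intervals from -0.21 to 0.08 and from -0.43 to 0.05.

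The promoters of TIPARP and AHRR are shown because both genes differed between the compounds and hold the letters at which the receptor binds. They run from 250 bases before to 50 bases after the first listed start in RefSeq on GRCh38.p14, at chr3:156674340-156674639 on the + strand for TIPARP and chr5:321464-321763 on the + strand for AHRR, and several genes have other starts. Capitals mark GCGTG, the core of the receptor's response element, on either strand.
TIPARP: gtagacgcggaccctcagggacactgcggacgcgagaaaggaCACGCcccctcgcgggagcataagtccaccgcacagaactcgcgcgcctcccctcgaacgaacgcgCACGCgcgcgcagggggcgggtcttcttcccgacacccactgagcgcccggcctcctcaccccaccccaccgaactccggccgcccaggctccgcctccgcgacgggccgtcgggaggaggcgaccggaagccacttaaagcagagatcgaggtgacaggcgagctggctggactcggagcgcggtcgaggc
AHRR: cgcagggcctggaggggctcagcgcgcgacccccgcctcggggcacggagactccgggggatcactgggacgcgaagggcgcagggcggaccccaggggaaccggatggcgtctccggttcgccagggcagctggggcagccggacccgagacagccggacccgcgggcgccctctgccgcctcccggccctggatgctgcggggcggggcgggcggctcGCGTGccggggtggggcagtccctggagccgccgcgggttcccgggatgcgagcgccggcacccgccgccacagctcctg
TIPARP holds 2 matches and AHRR holds 1. Among the listed genes with a promoter in the table, 9 of 12 (75.0%) held GCGTG, against 36.3% of 27305 promoters of the same length. Of the called members, TIPARP, AHRR and NQO1 held it, although NQO1 was higher with AMI-5. CYP1B1, with the largest difference, had no promoter in the table. A match is a description of the sequence, not a measured site.

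VIPR1, a receptor for vasoactive intestinal peptide, was at 9.61, 1.81 and 9.01 CPM with AMI-1 and 1.88, 1.14 and 1.73 CPM with AMI-5. The second AMI-1 library lay inside the AMI-5 range, and the difference was -2.10 on the log2 scale (SE 0.20, edgeR adjusted p = 3.31e-12). MMP1, the collagenase of the interstitial matrix, was at 116, 68.6 and 138 CPM with AMI-1 and 51.5, 42.9 and 50.7 CPM with AMI-5, without overlap. Its DMSO levels, 50.1, 48.1 and 63.4 CPM, were near those of AMI-5 (log2 difference -1.11, SE 0.09, edgeR adjusted p = 4.39e-14). WTAPP1, a pseudogene whose reads may belong to relatives or neighbours, was lower by 1.31. SHISA2, a membrane protein that modulates WNT and FGF receptors, was at 99.8, 80.1 and 106 CPM with AMI-1 and at 42.4, 45.1 and 45.5 CPM with AMI-5. These levels did not overlap either, and DMSO libraries were at 55.8, 54.9 and 55.6 CPM, nearer to AMI-5 (log2 difference -1.09, SE 0.08, edgeR adjusted p = 6.42e-15).

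SECTM1, a secreted ligand of T cells, CYGB, a globin of fibroblasts and pericytes, and LIF, a cytokine of the interleukin-6 family, were lower by 1.67, 0.94 and 0.91 on the log2 scale. IGFBP4, a secreted binder of insulin-like growth factors, was at 1818, 981 and 1447 CPM with AMI-1 and 911, 621 and 867 CPM with AMI-5. Every AMI-5 library was below every AMI-1 library (log2 difference -0.79, SE 0.07, edgeR adjusted p = 7.70e-13), and DMSO libraries at 1207, 710 and 1021 CPM lay between. RNA5-8SP6, a row of a multi-copy ribosomal RNA family and therefore uncertain, was lower by 0.86. All genes of this and the preceding paragraph kept their call without any single pair. SEs are small against the pairs because each gene's spread was drawn toward that of all genes: prior degrees of freedom were 56.5 against 2 residual ones.

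**Figure D3:**
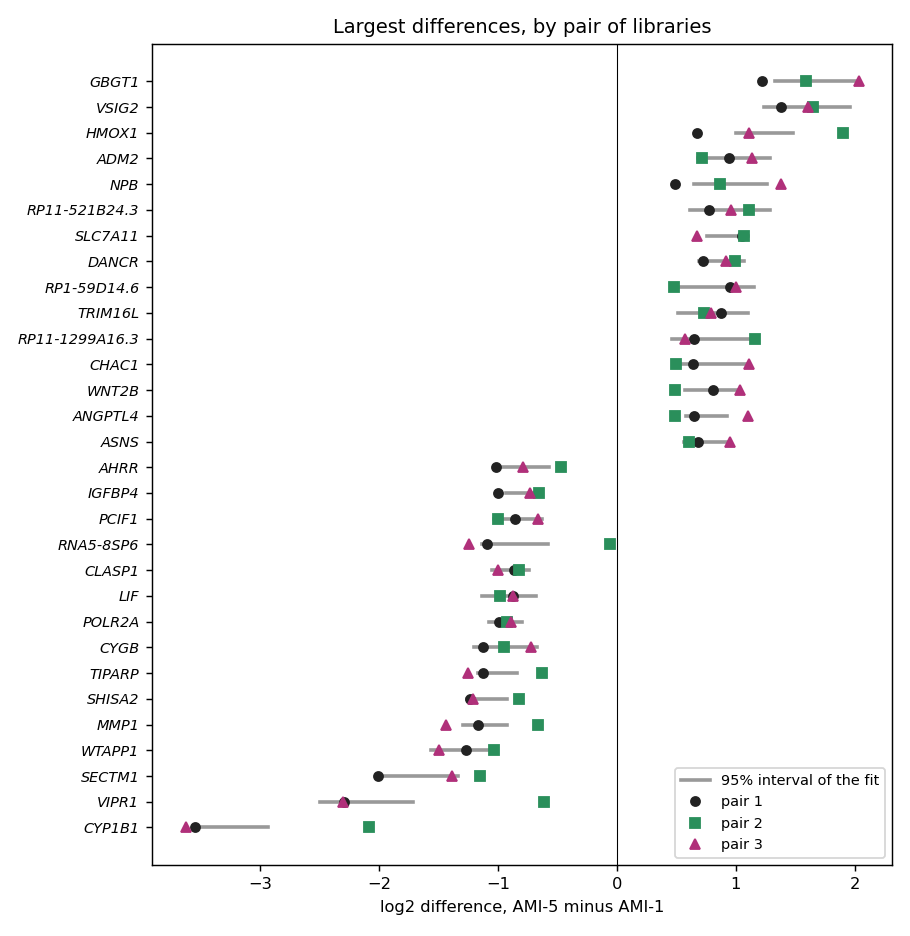
The log2 difference, AMI-5 minus AMI-1, in each of the 3 pairs of libraries for the 15 largest differences in each direction among called genes at 5 CPM or more in the higher group with the same sign in all pairs; grey bars are 95% intervals of the fit. For CYP1B1, VIPR1 and HMOX1 a pair lies well outside the bar, since the fit shares its spread across genes.

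For the largest subunit of RNA polymerase II it was the AMI-1 libraries that lay near DMSO. POLR2A, its gene, was at 825, 628 and 710 CPM with AMI-1, 415, 328 and 381 CPM with AMI-5, and 826, 609 and 724 CPM with DMSO. Each AMI-5 library was below every AMI-1 library, and the log2 difference was -0.93 (SE 0.07, 1.91-fold, edgeR adjusted p = 1.76e-15). PCIF1, which binds the tail of that subunit and methylates the first adenosine of capped messages, was at 36.7, 26.8 and 31.5 CPM with AMI-1 and 20.2, 13.2 and 19.7 CPM with AMI-5. Its groups did not overlap (log2 difference -0.83, SE 0.10, edgeR adjusted p = 2.21e-08). HEXIM1, which holds the elongation kinase P-TEFb inactive, was lower by 0.52 (edgeR adjusted p = 1.03e-05), a call lost without replicate 1 (adjusted p = 0.0504).

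Of the 36 measured genes for polymerase subunits and regulators of its tail, these 3 (8.33%) were lower, beside 2.42% of all genes. In the list 0 were higher and 33 were not called, and its median was 0.02. After GC correction 4 were lower and 2 were higher, beside 5.17% and 3.72% of all genes. POLR2B, the second largest subunit, was at 188, 269 and 227 CPM with AMI-1 and 203, 292 and 213 CPM with AMI-5. Its 95% interval ran from -0.09 to 0.20, so a difference of the size seen for POLR2A lies outside it. The other 10 subunits from POLR2C to POLR2L had differences between -0.14 and 0.15. The kinases CDK7 and CDK9, which phosphorylate the tail, were at 0.26 (95% interval 0.06 to 0.47) and -0.22 (95% interval -0.38 to -0.05) and were not called. CLASP1, which stabilises microtubule ends and belongs to no list, was lower as well: 129, 119 and 126 CPM with AMI-1, 71.0, 66.7 and 62.7 CPM with AMI-5 and 128, 112 and 112 CPM with DMSO. Its groups were well apart (log2 difference -0.90, SE 0.08, edgeR adjusted p = 3.15e-13).

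Of 28 measured targets of NRF2, 6 (21.4%) were higher with AMI-5. HMOX1, which breaks down haem, was at 17.7, 15.2 and 13.9 CPM with AMI-1 and 28.3, 56.6 and 29.9 CPM with AMI-5. No AMI-5 library reached down to AMI-1 or to DMSO (18.1, 15.8 and 16.5 CPM), and replicate 2 alone was far above the rest (log2 difference 1.24, SE 0.12, edgeR adjusted p = 1.31e-11). SLC7A11, the cystine importer that feeds glutathione synthesis, was at 25.8, 59.9 and 43.8 CPM with AMI-1 and 53.7, 125 and 69.7 CPM with AMI-5. Here the groups overlapped because replicates differed, while AMI-5 was higher in each pair (log2 difference 0.93, SE 0.09, edgeR adjusted p = 3.31e-12). GCLM, the modifier subunit of the enzyme that begins glutathione synthesis, was at 34.9, 50.4 and 41.3 CPM with AMI-1 and 50.7, 99.9 and 62.1 CPM with AMI-5. The groups were just apart, and AMI-5 was higher by 0.72 in the fit (SE 0.09, edgeR adjusted p = 2.79e-08), and these 3 genes kept their calls without any single pair.

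TXNRD1, a thioredoxin reductase, and ME1, which makes NADPH from malate, were higher by 0.35 each, but both calls were lost without replicate 1 and without replicate 2. None of the list was lower and 22 members were not called. Among all genes 1.35% were higher. The list's median was 0.13, with 23 members above 0, beside 49.9% of all genes. After a correction for GC content, 11 were higher and 1 was lower, beside 3.72% and 5.17% of all genes (8.89% called in all). FTL, the light chain of ferritin, was at 0.18 (95% interval 0.04 to 0.32, adjusted p = 0.155) and PRDX1, a peroxiredoxin, at 0.11 (95% interval -0.03 to 0.25). NQO1 is counted in this list as well as in that of the aryl hydrocarbon receptor.

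The promoter of GCLM is shown for the letters of the antioxidant response element at which NRF2 binds. It lies at chr1:93909381-93909680 on the - strand in GRCh38.p14 and is printed 5′ to 3′ of that strand. Capitals mark the match to TGACNNNGC, here on the opposite strand.
GCLM: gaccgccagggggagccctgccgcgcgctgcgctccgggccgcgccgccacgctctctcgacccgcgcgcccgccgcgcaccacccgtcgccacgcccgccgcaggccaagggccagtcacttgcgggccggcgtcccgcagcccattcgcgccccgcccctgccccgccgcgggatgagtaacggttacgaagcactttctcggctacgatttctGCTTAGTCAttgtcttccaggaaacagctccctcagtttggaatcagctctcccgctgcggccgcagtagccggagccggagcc
TGACNNNGC was searched on both strands, a motif chosen after the values were seen. It was in 5 of 23 promoters of the list (21.7%) and in 13.6% of all promoters, and among called members GCLM, TXNRD1 and ME1 held it while NQO1 did not in this window.

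Of 28 measured genes of the ATF4 amino acid response, 7 were higher with AMI-5, beside 1.35% of all genes. ASNS, which makes asparagine, was at 20.1, 31.4 and 20.9 CPM with AMI-1 and 32.4, 47.6 and 40.3 CPM with AMI-5, and the DMSO libraries were at 17.7, 28.5 and 21.5 CPM. Every AMI-5 library was above every AMI-1 library (log2 difference 0.76, SE 0.10, edgeR adjusted p = 6.46e-08). PSAT1, an enzyme of serine synthesis, was at 52.8, 70.7 and 55.9 CPM with AMI-1 and 72.6, 107 and 91.2 CPM with AMI-5, again without overlap (log2 difference 0.60, SE 0.08, edgeR adjusted p = 3.23e-07). CHAC1, which degrades glutathione, was at 5.54, 4.53 and 4.67 CPM with AMI-1 and 8.69, 6.37 and 10.1 CPM with AMI-5. All AMI-5 libraries were above all AMI-1 libraries (log2 difference 0.80, SE 0.14, edgeR adjusted p = 0.000128). ADM2, a peptide hormone of the calcitonin family, was higher by 0.98.

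STC2, a secreted glycoprotein that ATF4 also drives, went the other way. It was at 254, 153 and 222 CPM with AMI-1 and 136, 124 and 135 CPM with AMI-5, while DMSO libraries were at 158, 135 and 153 CPM (log2 difference -0.64, SE 0.08, edgeR adjusted p = 6.46e-08). All AMI-1 libraries were above all AMI-5 libraries. It was the lone lower gene of the list, and 20 members were not called. The median was 0.21 and 24 members were above 0, beside 49.9% of all genes. After the GC correction 15 were higher and 1 was lower, beside 3.72% and 5.17% of all genes. ATF4 itself was at 0.17 (95% interval 0.02 to 0.32, adjusted p = 0.239). ASNS, PSAT1, CHAC1, ADM2 and STC2 kept their calls without any single pair.

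The promoters of ASNS and CHAC1 are shown because ASNS and CHAC1 were higher and hold TGATGNAA, the composite site of ATF4 and C/EBP proteins. ASNS lies at chr7:97872359-97872658 on the - strand and CHAC1 at chr15:40953221-40953520 on the + strand of GRCh38.p14. Capitals mark the match, which for CHAC1 is on the opposite strand.
ASNS: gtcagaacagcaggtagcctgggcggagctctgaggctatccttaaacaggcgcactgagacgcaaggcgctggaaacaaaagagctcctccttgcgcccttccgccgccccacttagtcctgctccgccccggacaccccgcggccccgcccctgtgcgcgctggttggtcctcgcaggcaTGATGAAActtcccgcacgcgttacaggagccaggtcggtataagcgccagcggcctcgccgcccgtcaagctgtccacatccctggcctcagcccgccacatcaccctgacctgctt
CHAC1: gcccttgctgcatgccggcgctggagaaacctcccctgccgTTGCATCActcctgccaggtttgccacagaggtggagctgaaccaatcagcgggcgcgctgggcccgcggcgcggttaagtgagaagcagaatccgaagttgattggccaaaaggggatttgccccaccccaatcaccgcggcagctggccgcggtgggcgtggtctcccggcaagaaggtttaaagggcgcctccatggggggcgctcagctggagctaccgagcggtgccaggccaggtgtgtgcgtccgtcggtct
The motif, chosen after the values were seen and searched on both strands, was in 3 of 22 listed promoters (13.6%) and in 3.67% of all promoters. Of the 7 called genes with a promoter in the table, ASNS and CHAC1 held it, and PSAT1, PHGDH, MTHFD2, STC2 and ADM2 held no match in this window.

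Other stress pathways gave small or mixed differences. Of 20 aminoacyl-tRNA synthetases, which charge tRNAs, GARS (0.24) and TARS (0.27) were higher with AMI-5 and 0 were lower, with a median of 0.13. Both calls were lost without replicate 1 and without replicate 2, that of GARS also with DESeq2, whereas 10 members were higher after GC correction, beside 3.72% of all genes. Of 22 cytosolic chaperone genes, 4 were higher and 2 lower (27.3% called, beside 3.77% of all genes). HSPA1B, an inducible HSP70, was higher by 0.37 (edgeR adjusted p = 0.0194). HSPB1, a small heat shock protein, and HSF1, the main activator of heat shock genes, were lower by 0.33 and 0.32. The call of HSPA1B was lost without replicate 2, with DESeq2, with length correction and with DMSO libraries in the fit, and those of HSPB1 and HSF1 without replicate 1 and without replicate 2. HSPB1 also lost its call with DESeq2, and its difference in pair 3 was 0.04. None of 21 genes of the unfolded protein response was called by edgeR. HSPA5, the main chaperone of the endoplasmic reticulum, was at 827, 765 and 823 CPM with AMI-1 and 829, 811 and 834 CPM with AMI-5, with a 95% interval of -0.09 to 0.18. MT2A and MT1E, metallothioneins that bind zinc and copper, were lower by 0.49 and 0.38. In their list 2 of 8 measured members were thus lower and 0 were higher, beside 2.42% and 1.35% of all genes. MT1E lost its call without replicate 1 and without replicate 2.

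Among selenoproteins, DIO2, which activates thyroid hormone, was at 0.98, 2.04 and 0.68 CPM with AMI-1, at 3.52, 7.58 and 3.68 CPM with AMI-5 and at 1.54, 3.57 and 1.47 CPM with DMSO. AMI-5 libraries were above all AMI-1 libraries, and above DMSO at each replicate number (log2 difference 2.04, SE 0.21, 4.13-fold, edgeR adjusted p = 4.27e-11). SEPW1 and SEPN1, selenoproteins of redox control and of the endoplasmic reticulum, were lower by 0.48 and 0.31, and both calls were lost without replicate 1 and without replicate 2. Of 14 selenoproteins measured, 2 were higher and 2 were lower (28.6% called, beside 3.77% of all genes).

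Of 17 arginine methyltransferases and partners, 1 (5.88%) was called, near the share of all genes (3.77%). It was PRMT6, which methylates histone H3, and it was at 29.4, 32.4 and 29.4 CPM with AMI-1 and 21.3, 24.0 and 24.2 CPM with AMI-5. The groups did not overlap (log2 difference -0.38, SE 0.10, edgeR adjusted p = 0.0133), but the call was lost without replicate 1 (adjusted p = 0.609), without replicate 2 (adjusted p = 0.273) and with DESeq2. PRMT1, the most active enzyme of the family in most cells, was at -0.15 (95% interval -0.30 to -0.003), CARM1, a coactivator, at -0.15 (95% interval -0.30 to 0.01) and PRMT5, which makes symmetric dimethylarginine, at -0.08 (95% interval -0.23 to 0.07). SETD7, a lysine methyltransferase, was at 0.01 with an interval of -0.14 to 0.16. These intervals leave out differences of 1.5-fold in either direction.

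Of 31 lysine methyltransferases, 4 (12.9%) were lower with AMI-5 and 0 were higher, against 2.42% lower among all genes. DOT1L, which methylates histone H3 in gene bodies, was at 101, 56.5 and 66.3 CPM with AMI-1 and 69.1, 37.5 and 58.2 CPM with AMI-5. AMI-5 was lower within each pair though the groups overlapped (log2 difference -0.43, SE 0.08, edgeR adjusted p = 0.000649). MLL4, EZH1 and EHMT1, enzymes of active, repressed and silent chromatin, were lower by 0.34, 0.32 and 0.29. MLL4 is the symbol of the deposited row, an older name that has been used for more than a single gene. All 4 calls were lost without replicate 1 and without replicate 2, those of EZH1 and EHMT1 also with DESeq2, and that of EZH1 with length correction and voom. Of 19 lysine demethylases 1 (5.26%) was called, near the share of all genes (3.77%). It was KDM5C, which removes methyl groups of active promoters, lower by 0.35 and also lost without either of those pairs. None of 30 histone acetylation genes and 25 genes of DNA and RNA methylation or the methionine cycle was called by edgeR.

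Of 24 genes of cholesterol synthesis and uptake, 22 had differences below 0, few of them past the test, beside 9100 of the 18154 genes tested. SREBF2, the transcription factor of cholesterol synthesis, was at 243, 165 and 185 CPM with AMI-1 and 160, 98.1 and 153 CPM with AMI-5, and every AMI-5 library was below every AMI-1 library (log2 difference -0.53, SE 0.08, edgeR adjusted p = 2.42e-06). MVD, an enzyme of the mevalonate pathway, was at 68.4, 39.8 and 51.1 CPM with AMI-1 and 45.5, 20.2 and 42.3 CPM with AMI-5. It was lower in each pair with overlapping groups (log2 difference -0.58, SE 0.10, edgeR adjusted p = 2.49e-05). LSS, which closes the sterol rings, was lower by 0.26, a call lost without replicate 1, without replicate 2 and with DESeq2, length correction and voom. In the list 3 genes (12.5%) were lower and 0 higher, beside 2.42% and 1.35% of all genes, and the median was -0.08. After GC correction 9 were lower, beside 5.17% of all genes. DMSO means of SREBF2 and MVD, 208 and 57.0 CPM, were nearer to AMI-1 than to AMI-5.

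Of 16 measured NF-kB targets, 4 were lower with AMI-5 and 0 were higher, beside 2.42% and 1.35% of all genes. With the DESeq2 Wald test 1 of them was called lower. CCL2, a chemokine for monocytes, was at 9.05, 8.20 and 11.9 CPM with AMI-1 and 6.39, 6.71 and 5.83 CPM with AMI-5. AMI-1 was higher throughout, with DMSO libraries at 7.10, 6.23 and 7.08 CPM (log2 difference -0.63, SE 0.14, edgeR adjusted p = 0.00199). LIF, CXCL5, a neutrophil chemokine, and RELB, a subunit of NF-kB, were the other called members. CXCL5 lost its call without each pair in turn, and RELB lost it without replicate 1, without replicate 2 and after GC correction. Both also lost it with DESeq2's size factors, length correction and voom. Of 27 interferon genes none was called by edgeR. Of 35 genes of hypoxia and glycolysis, 4 were lower and 1 was higher (14.3% called, beside 3.77% of all genes). After GC correction 8 were lower and 2 were higher, beside 5.17% and 3.72% of all genes. NDRG1 (-0.47), VEGFA (-0.41), SLC2A3 (-0.39) and PFKL (-0.35), a stress gene, the endothelial growth factor, a glucose transporter and phosphofructokinase, lost their calls without replicate 1, and the last 2 also without replicate 2. ANGPTL4, an inhibitor of lipoprotein lipase, was higher in its place: 67.2, 52.2 and 51.8 CPM with AMI-1 and 105, 72.7 and 111 CPM with AMI-5, without overlap (log2 difference 0.76, SE 0.09, edgeR adjusted p = 3.68e-09).

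Of 24 measured endothelial genes 20 had differences below 0, and of 39 matrix genes 27, beside 9100 of the 18154 genes tested. MMP2 and MMP14, gelatinase and its membrane-bound activator, were lower by 0.43 and 0.36. With MMP1, 3 of 18 proteases and inhibitors (16.7%) were lower and 0 higher, beside 2.42% and 1.35% of all genes. After GC correction 4 of them were lower and 1 was higher, beside 5.17% and 3.72% of all genes. LAMA5, a laminin chain of the vessel basement membrane, was at 512, 202 and 309 CPM with AMI-1 and 319, 123 and 269 CPM with AMI-5 (log2 difference -0.52, SE 0.08, edgeR adjusted p = 3.28e-06). The replicates spread more widely than the compounds, and the call was lost without replicate 1 (adjusted p = 0.0504) and with DESeq2. Of the matrix and TGF-beta genes, 5 were lower and 1 was higher (15.4% called, beside 3.77% of all genes). Their median was -0.05, and -0.02 after GC correction. After that correction 7 were lower and 3 were higher, beside 5.17% and 3.72% of all genes. Among the endothelial genes 4 were lower and 1 was higher (20.8% called), with a median of -0.21 (-0.13 after GC correction). NOS3, the endothelial nitric oxide synthase, KLF2, a factor induced by flow, TIE1, an orphan receptor, and ENG, a co-receptor of TGF-beta, were lower by 0.46, 0.32, 0.31 and 0.25, all lost without replicate 1 and without replicate 2. With DESeq2 NOS3, KLF2 and ENG were not called, and ENG was not called after GC correction either. The difference of ENG in pair 3 was 0.01. ESAM, a junctional adhesion molecule, was higher by 0.86, at 1.82, 1.36 and 1.49 CPM with AMI-1 and 2.77, 2.75 and 2.87 CPM with AMI-5, a call lost without replicate 2 (adjusted p = 0.139). CDH5 was at -0.24 (95% interval -0.39 to -0.09, adjusted p = 0.0586). MMP2 lost its call without replicate 1 and MMP14 without replicate 1 and without replicate 2.

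Of the markers of other cell types measured, 2 of 6 fibroblast genes (33.3%) and 1 of 8 smooth muscle and pericyte genes (12.5%) were called, all lower with AMI-5, beside 2.42% of all genes. The summed level of 6 fibroblast genes was 3140 to 4190 CPM with AMI-1 and 2460 to 3200 CPM with AMI-5. Most of it was COL1A1, a collagen chain also counted in the matrix list (means 3272 and 2678 CPM). COL1A1 was lower by 0.28 and LUM, a small proteoglycan, by 0.92. The sum of 8 smooth muscle and pericyte genes was 836 to 1160 CPM and 695 to 1090 CPM, of which MCAM, an adhesion molecule that endothelium also has, was lower by 0.28. These calls were lost without replicate 1 and without replicate 2, that of COL1A1, at 0.02 in pair 3, also with DESeq2 and that of LUM with length correction and voom. The 2 leukocyte genes measured summed to 33.7 to 43.9 CPM and 31.7 to 49.0 CPM, and the 3 epithelial genes to 286 to 412 CPM and 225 to 391 CPM, with 0 called by edgeR in either. PTPRC, the defining leukocyte gene, was not analysed here. The libraries were of a single cell line, and levels of these genes do not show that other cell types were there. In these bulk samples fewer cells of a type and less RNA per cell cannot be told apart. The part of these levels in the endothelial and matrix differences was not tested.

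The other large differences toward higher levels with AMI-5 were in genes of no list. GBGT1, a glycosyltransferase of glycolipids, was at 3.37, 1.75 and 1.81 CPM with AMI-1 and 7.99, 5.43 and 7.69 CPM with AMI-5 (log2 difference 1.67, SE 0.17, edgeR adjusted p = 6.80e-11). VSIG2, a membrane protein of the immunoglobulin family, was at 2.10, 1.41 and 1.77 CPM with AMI-1 and 5.64, 4.63 and 5.58 CPM with AMI-5 (log2 difference 1.60, SE 0.18, edgeR adjusted p = 2.86e-09). Both were well above AMI-1 and DMSO in each AMI-5 library, DMSO means being 2.35 and 1.55 CPM. DANCR, a long non-coding RNA that hosts small nucleolar RNAs, was at 25.8, 20.4 and 24.9 CPM with AMI-1 and 42.7, 40.3 and 46.8 CPM with AMI-5. DMSO libraries lay between, at 29.3, 30.7 and 29.4 CPM (log2 difference 0.88, SE 0.09, edgeR adjusted p = 3.64e-10). WNT2B, a WNT ligand, and NPB, a neuropeptide, were higher by 0.80 and 0.96. TRIM16L, a partial copy of TRIM16 and therefore uncertain, and the non-coding rows RP11-521B24.3, RP1-59D14.6 and RP11-1299A16.3 were higher by 0.80 to 0.95. Of all these, RP11-1299A16.3 lost its call without replicate 2 (adjusted p = 0.166) and the others kept theirs without any single pair.

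Of 42 genes of ribosome biogenesis, a sign of growth, and 76 ribosomal protein genes none was called by edgeR. Still, 37 of the 42 had differences above 0 (median 0.06), beside 49.9% of all genes. After GC correction 3 of the 42 and 7 of the 76 were higher and 0 were lower, beside 3.72% and 5.17% of all genes. FN1, the fibronectin gene with the largest share of counts, had an interval of -0.08 to 0.18 and the ribosomal protein gene RPL4 one of -0.11 to 0.17. None of 30 mitotic and 31 replication genes was called by edgeR, and MKI67, a proliferation marker, had an interval of -0.22 to 0.05. Of 20 p53 targets 1 (5.0%) was called, near the share of all genes (3.77%). It was MDM2, which degrades p53, higher by 0.25 (edgeR adjusted p = 0.0411). The call was lost without replicate 1, without replicate 2 and with DESeq2. Of 20 immediate early genes, 3 were lower and 0 were higher, beside 2.42% and 1.35% of all genes. After GC correction 4 were lower and 3 were higher, beside 5.17% and 3.72% of all genes. Before that correction IER3, EGR1 and FOSL1 were lower by 0.49, 0.29 and 0.33. IER3, a regulator of cell survival, kept its call without any single pair, and EGR1 and FOSL1, transcription factors, lost theirs without replicate 1 and without replicate 2.

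Set beside the DMSO libraries, which were outside the fit, the 684 genes fell unevenly. The DMSO mean was closer to AMI-1 on the log scale for 538 genes and closer to AMI-5 for 146, and it lay between the compounds for 430. It was closer to AMI-1 for 185 of the 245 higher and 353 of the 439 lower genes. These positions are a description without a test, since genes were picked for a difference between the 2 other groups.

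GC content of the transcripts moved with the differences, in unlike directions among the pairs. Genes tested were put into 5 groups of equal size by GC content. In pairs 1 and 2 the median log2 difference went from 0.11 and 0.14 in the group with the lowest GC content to -0.20 and -0.26 in that with the highest, and in pair 3 from -0.08 to 0.09. With a correction for GC content in each library 1613 genes were called, 675 higher and 938 lower, including 645 of the 684. RELB and ENG were the named genes that lost their call. The part of GC content in any one gene's difference was not tested.

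**Figure D4:**
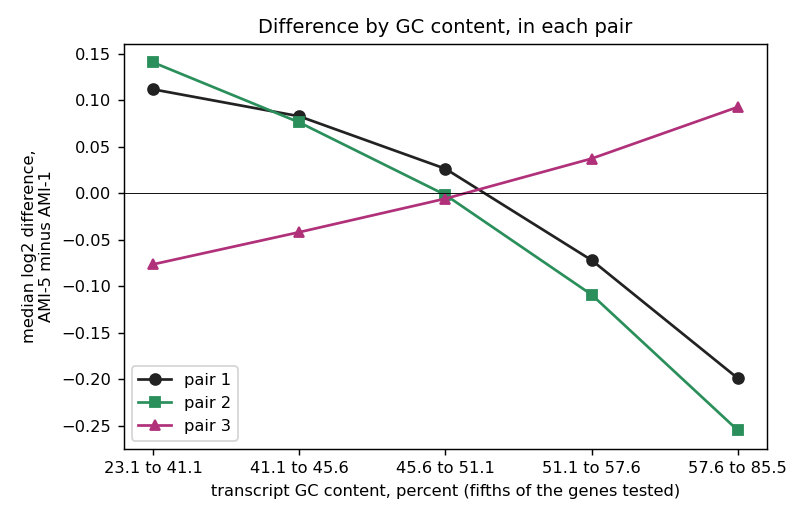
Median log2 difference, AMI-5 minus AMI-1, in each pair of libraries for 5 groups of the genes tested by transcript GC content. Pairs 1 and 2 fall from left to right, to -0.20 and -0.26, and pair 3 rises to 0.09.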

How the data were processed

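Poly-A RNA of HMEC-1 cells was sequenced, and the authors deposited raw read counts per gene in a pair of tables, 1 per compound. The submitters' processing notes name BWA, bedtools and hg19; their versions, the annotation and strandedness: not given in the sources used here. Counts of overlapping, antisense or multi-copy genes therefore cannot be told apart. Control columns were identical in both tables (0 values differed). Of 18385 and 18598 rows, 18293 were shared. The smallest row mean was 10 counts in each table. After filterByExpr, 18154 genes were tested and 139 left out.

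For the tests, edgeR 4.0.16 (R 4.3.3) was run on the counts with TMM scaling, its quasi-likelihood F test, replicate number as a block and Benjamini-Hochberg adjustment over all genes at 0.05. Intervals are at 95%. Deviations from the group mean were compared between libraries over 15193 genes, as a description of the pairing. For the same replicate number r was 0.892, 0.899 and 0.218, and for different numbers it ran from -0.887 to 0.563. The third pair was thus weak: AMI-5 replicate 3 went more with AMI-1 replicate 1 (r = 0.563) than with AMI-1 replicate 3 (r = 0.218). On simulated counts for this comparison (18081 genes), 83.6%, 94% and 100% of 67, 67 and 66 genes changed 1.5-fold, 2-fold and 4-fold were recovered, with 8 unchanged genes called. The simulated means followed the replicate block exactly, with the spread fitted under it, and only genes above an average log2 CPM of 1 were changed. They held no GC trend that differed between pairs, so these rates hold for that setting and not for the data at large. Members and lists were chosen with earlier results of these data known. Of 1066 distinct genes in 41 lists, 983 were measured. The values of 1 called list member are not reported here. Named genes are the 15 largest differences in each direction at 5 CPM or more, up to 5 called members per list, all members of 3 lists (aryl hydrocarbon receptor, arginine methyltransferases, RNA polymerase II), fixed genes including SETD7, and up to 2 uncalled members per list with the narrowest intervals. GC content (GENCODE transcripts on GRCh38, by gene ID) was known for 95.8% of genes. Alternatives were no block, size factors and the Wald test of DESeq2 1.42.0, other filters, GC and length corrections, DMSO libraries for the spread, and each pair left out. The robust fit and voom of limma 3.58.1 were added after seeing the data.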

Additional observations from a re-analysis of the deposited data

How the results depend on the processing

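No alternative turned the direction of a named gene that was called; some uncalled genes near 0, such as SLC7A5 and SETD7, changed sign with GC correction. Without the replicate block (the pairing) 0 genes were called, 0 higher and 0 lower, and all 93 named calls were lost: biological variation was 21.6% without and 6.9% with the block. With the DESeq2 Wald test 255 genes were called, 58 higher and 197 lower, and 10059 genes had an adjusted p. With GC correction 1613 were called, 675 higher and 938 lower. Size factors gave 485 calls, 152 higher and 333 lower, and other filters 687 and 693. With DMSO libraries in the fit there were 916 calls, with length correction 537, with the robust fit 820 and with voom 552. Leaving out a pair gave 101 to 3642 calls, 58 to 1205 higher and 43 to 2437 lower. Among named genes the Wald test ended 19 calls, size factors 11, length correction 8, voom 5, DMSO libraries 5 and GC correction 2. Of the 93 named calls, 38 kept theirs in every fit with the block that gave the gene an adjusted p. Some of these genes, such as GBGT1 and VIPR1, lacked an adjusted p in a fit. Leaving out pairs also leaves fewer libraries; why replicate 3 moved the count upward, and the cause of the differences by tool and GC correction, was not tested. Tests lean on a spread common to all genes (prior degrees of freedom 56.5, or 13.8 with DMSO libraries). The median half-width of the 95% intervals, which are not adjusted for the number of genes, was 0.22 on the log2 scale. Smaller differences were mostly not called. Some larger ones, such as AHR at 0.25 and CDH5 at -0.24, were not called either.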

Other observations

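The genes called in each of the 3 fits that left out a pair also hold some that belong to no list, chosen here after their values were seen. Lower with AMI-5 were ANPEP, a surface aminopeptidase (means 279 CPM with AMI-1 and 167 CPM with AMI-5, log2 difference -0.74), KCTD12, a subunit of GABA receptors (428 and 260 CPM, -0.72), HMMR, a hyaluronan receptor of the spindle (85.5 and 56.1 CPM, -0.63), NTN4, a netrin of basement membranes (581 and 416 CPM, -0.48), and BMF, a pro-apoptotic protein (18.9 and 10.9 CPM, -0.77). The cytokine IL24 (1.99 and 0.59 CPM, -1.77) and NPTX1, a pentraxin (3.51 and 0.81 CPM, -2.10), were low in both groups. Higher with AMI-5 were KITLG, the ligand of the KIT receptor (29.6 and 46.7 CPM, 0.66), IL7R, a cytokine receptor (32.7 and 50.03 CPM, 0.61), IGFBP3, a binder of insulin-like growth factors (53.7 and 79.0 CPM, 0.57), and SULF1, which trims heparan sulfate (18.6 and 28.1 CPM, 0.60). IGFBP3 thus differed in the opposite direction from IGFBP4. SOCS1, an inhibitor of cytokine signalling (1.13 and 2.93 CPM, 1.37), was higher from a low level. SNORD3B-1, a row of the multi-copy U3 small nucleolar RNA and therefore uncertain in poly-A counts, was at 0.62 and 4.85 CPM (2.95).

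The tables held 92 rows only in that for AMI-1 and 305 only in that for AMI-5, and these were left out of every value above.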
